A study of Mus musculus with 20 samples.

Results

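The genes described here are 8 genes that mark arterial endothelium, the lining of the arteries and arterioles that bring blood into a tissue. They are the transcription factor Sox17, the gap junction proteins Gja4 and Gja5, the ligands Efnb2, Sema3g and Cxcl12, the kinase Bmx and the secreted protein Gkn3. They were taken as a list of gene names, not by a threshold on measured values, and make up 8 of the 42374 genes to which counts could be assigned. All 8 passed the filter on low counts, as did 13971 genes in all. The levels of Gja5, Gkn3, Sema3g, Gja4 and Efnb2 were lower in oxidative than in glycolytic muscle endothelium of wild type mice. The calls for Gja4 and Efnb2 were lost when library sizes were set from pan-endothelial genes. Cxcl12 was higher in oxidative muscle, but that call was lost with DESeq2 and when some single libraries were left out. Relative to WT, Atf4 ECKO had lower Gja4 in both muscles, lower Gja5 and Sox17 in glycolytic muscle, and higher Sema3g with lower Cxcl12 and Gkn3 in oxidative muscle. In glycolytic muscle genotype cannot be told apart from sex. In oxidative muscle they can be told apart only in part, since no Atf4 ECKO library matched WT in sex-linked RNA. In oxidative muscle the calls for Cxcl12 and Gkn3 were lost without Atf4 ECKO libraries 1 to 3, and that for Gja4 without libraries 4 and 5. The call for Sema3g held, at log2 0.29 without libraries 1 to 3 and 0.89 without libraries 4 and 5.

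The RNA came from muscle endothelial cells of C57BL/6N mice, sorted as positive for the endothelial surface protein CD31 and negative for the leukocyte protein CD45. The 4 groups were oxidative Atf4 ECKO, oxidative WT, glycolytic Atf4 ECKO and glycolytic WT, with 5 libraries each. Oxidative muscle was the soleus, a slow muscle of high mitochondrial content, and glycolytic muscle was the extensor digitorum longus (EDL), a fast muscle. Atf4 ECKO mice lacked Atf4, which encodes a stress-responsive transcription factor, in endothelial cells. A tamoxifen-inducible Cre recombinase removed it when the mice were 8 to 10 weeks old, with 1 mg of tamoxifen daily for 5 days and then at least 7 days without treatment. WT mice were Cre-negative littermates that had received the same tamoxifen, so all 4 groups share this treatment. The labels name neither the promoter that drives the Cre nor the animals behind each library, so the p-values refer to the spread among libraries alone, and part of it may be technical.

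In the embryo, arterial identity is set by vascular endothelial growth factor and Notch signalling together with SoxF transcription factors, among them Sox17, and it is maintained in adult vessels by flow. Gja4 encodes connexin 37 and Gja5 connexin 40, which form the gap junctions that carry electrical signals along arteriolar endothelium. Efnb2 encodes ephrin-B2, the arterial surface ligand of the venous receptor EphB4. Sema3g is a secreted semaphorin of arterial endothelium, Cxcl12 is a chemokine that arterial and some capillary endothelium releases, Bmx is a Tec family tyrosine kinase of arterial and endocardial endothelium, and Gkn3 is a gastrokine that marks arterial endothelium in mouse brain. Arteries and arterioles make up a small fraction of the vessel bed of a muscle, most of which is capillary. In RNA from a sorted population, fewer arterial cells and less RNA of a gene per arterial cell cannot be told apart.

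The genes lie on 7 chromosomes of the mouse genome, given here on GRCm38 with Ensembl gene identifiers. Sox17 (ENSMUSG00000025902.13) lies on chromosome 1, from 4490931 to 4497354 on the minus strand, and Gja5 (ENSMUSG00000057123.14) on chromosome 3, from 96904693 to 97077416 on the plus strand. Gja4 (ENSMUSG00000050234.7) lies on chromosome 4, from 127311421 to 127314039 on the minus strand. Gkn3 (ENSMUSG00000030048.5) and Cxcl12 (ENSMUSG00000061353.11) are both on chromosome 6, Gkn3 from 87383256 to 87388935 on the minus strand and Cxcl12 from 117168535 to 117181367 on the plus strand. Efnb2 (ENSMUSG00000001300.16) lies on chromosome 8, from 8617434 to 8661242 on the minus strand, Sema3g (ENSMUSG00000021904.6) on chromosome 14, from 31217860 to 31230352 on the plus strand, and Bmx (ENSMUSG00000031377.11) on the X chromosome, from 164192842 to 164258193 on the minus strand. Gja5 shares its span with genes on the other strand, Sox17 overlaps a processed transcript on the other strand, and Efnb2 contains 3 short unnamed transcribed genes on its own strand. How strand was handled when reads were assigned is not known here, so the values of these 3 genes are uncertain to that extent.

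The 250 bases before the transcription start were available for 7 of the 8 genes from RefSeq on GRCm38.p6, and those of 4 genes that differed between groups in unlike ways are shown. Capitals mark short letter patterns found by search on both strands. These patterns were TGACG, the core of the cyclic AMP response element that ATF family proteins can bind, ACAAT, a core bound by SOX proteins, TGGGAA, a core bound by the Notch mediator RBPJ, and TGATGNAA, the composite element of ATF4 with C/EBP proteins. The patterns do not overlap in the windows shown, and they were chosen after the windows had been seen.
Gja5, chr3:97032152-97032401, plus strand: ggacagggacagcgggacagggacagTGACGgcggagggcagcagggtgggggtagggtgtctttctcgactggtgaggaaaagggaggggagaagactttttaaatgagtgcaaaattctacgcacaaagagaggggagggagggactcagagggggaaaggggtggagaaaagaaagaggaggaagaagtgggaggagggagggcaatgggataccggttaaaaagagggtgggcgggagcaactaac
Gja4, chr4:127314040-127314289, minus strand: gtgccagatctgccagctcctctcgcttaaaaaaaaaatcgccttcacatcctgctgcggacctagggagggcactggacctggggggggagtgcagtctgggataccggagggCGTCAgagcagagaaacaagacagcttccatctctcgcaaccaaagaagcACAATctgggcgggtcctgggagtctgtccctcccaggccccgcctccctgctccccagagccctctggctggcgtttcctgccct
Sema3g, chr14:31217623-31217872, plus strand: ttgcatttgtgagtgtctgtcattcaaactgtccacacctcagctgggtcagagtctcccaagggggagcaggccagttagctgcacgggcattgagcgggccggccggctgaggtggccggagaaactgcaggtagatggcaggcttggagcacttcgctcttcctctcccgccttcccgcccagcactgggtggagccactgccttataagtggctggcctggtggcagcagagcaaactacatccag
Cxcl12, chr6:117168285-117168534, plus strand: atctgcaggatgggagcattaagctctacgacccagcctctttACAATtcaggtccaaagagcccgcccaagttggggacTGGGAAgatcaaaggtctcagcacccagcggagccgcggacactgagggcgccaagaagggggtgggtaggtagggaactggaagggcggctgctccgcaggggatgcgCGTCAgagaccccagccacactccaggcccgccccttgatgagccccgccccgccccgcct
TGACG, or its reverse complement CGTCA, begins 224 bases before the start of Gja5, 136 bases before that of Gja4, 61 bases before that of Cxcl12 and 110 bases before that of Efnb2. The windows of Gja4, Cxcl12 and Bmx hold ACAAT, and those of Cxcl12 and Bmx hold TGGGAA. The window of Sema3g holds none of the 4 patterns, and TGATGNAA is in none of the 7 windows. Among all 32851 windows of the same length, 17.8% hold TGACG, 27.7% hold ACAAT, 21.6% hold TGGGAA and 3.45% hold TGATGNAA, so short patterns of this kind are frequent.

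Library totals lay between 8013223 and 21720127 counts, and the least abundant of the 8 genes, Bmx and Gkn3, had at least 27 counts in every library. Atf4 itself stood at 7.97 to 8.70 CPM in oxidative Atf4 ECKO and at 534.9 to 589.4 CPM in oxidative WT, and at 5.79 to 8.44 CPM in glycolytic Atf4 ECKO and 243.3 to 280.9 CPM in glycolytic WT, so the labels of genotype hold in all 20 libraries. CPM are counts scaled to 1000000 of the TMM-normalised library size. The endothelial markers Pecam1 and Cdh5 averaged at least 1433.2 and 764.4 CPM in every group, against at most 2.53 CPM for Ptprc, the gene of CD45. The smooth muscle genes Acta2 and Myh11 averaged 1023.8 and 24.5 CPM in glycolytic Atf4 ECKO and 188.6 and 19.9 CPM in glycolytic WT. In oxidative muscle they averaged 362.0 and 14.5 CPM in Atf4 ECKO and 215.9 and 17.7 CPM in WT. The lymphatic markers Prox1 and Lyve1 averaged at most 2.34 and 10.7 CPM in any group. The whole list of 7 lymphatic genes summed to 322.3 to 331.9 CPM in glycolytic Atf4 ECKO and 238.3 to 262.6 CPM in glycolytic WT, with 3 higher in Atf4 ECKO. In oxidative muscle it summed to 253.7 to 324.8 CPM in Atf4 ECKO and 207.4 to 262.3 CPM in WT, with 2 higher in Atf4 ECKO. By the test described below, 13.9% of all tested genes were higher in Atf4 ECKO in glycolytic and 14.6% in oxidative muscle.

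The 5 oxidative Atf4 ECKO libraries were not alike. The summed CPM of the Y-linked genes Ddx3y, Uty, Kdm5d and Eif2s3y stood at 56.6%, 57.5%, 28.2%, 0.816% and 0.964% of the oxidative WT mean in libraries 1 to 5. The X-linked RNA Xist, which female cells express, stood at 18.6, 18, 43.8, 81.5 and 76.2 CPM in the same libraries. All 5 glycolytic Atf4 ECKO libraries had at most 1.63% of the Y-linked RNA of glycolytic WT, and all 10 WT libraries had at most 0.274 CPM of Xist. Sex and genotype therefore cannot be told apart in glycolytic muscle, and in oxidative muscle they can be told apart only as far as libraries 1 to 3 hold both kinds of RNA. Without libraries 1 to 3 they cannot be told apart in oxidative muscle either. Comparisons with oxidative Atf4 ECKO are given below with all 5 libraries. For the genes introduced at the start, those whose call changes are also given without libraries 1 to 3 or without libraries 4 and 5. For the other genes and lists named below, whether a call changes without these libraries was not examined. Some values are also given with Y-linked RNA as a covariate. Y-linked RNA varied little within oxidative WT (106.8 to 118.3 CPM), glycolytic WT (92.1 to 101.5) and glycolytic Atf4 ECKO (0.596 to 1.55). The adjustment therefore rests mainly on the 5 oxidative Atf4 ECKO libraries, and in glycolytic muscle it cannot separate genotype from sex.

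On a scale per transcript length, the deposited TPM, Cxcl12 and Sox17 were the most abundant of the 8 genes in all groups. Cxcl12 averaged 482.5 ± 119 TPM in oxidative Atf4 ECKO, 509.2 ± 25.1 in oxidative WT, 589.8 ± 12.1 in glycolytic Atf4 ECKO and 529.2 ± 8.57 in glycolytic WT (SD, n = 5 each). Sox17 averaged 285.5 ± 32.3, 248.9 ± 12.5, 244.4 ± 12.8 and 265.8 ± 10.8 TPM in the same order. The lowest Cxcl12 library exceeded the highest Sox17 library in every group, and the lowest Sox17 library exceeded every library of the other 6 genes. Bmx was last, with group means between 1.94 and 2.80 TPM.

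Between these extremes the order of the other 5 genes differed from group to group. In glycolytic WT it ran from Gja5 (36.5 ± 0.31 TPM) through Gja4 (32.6 ± 3.06), Gkn3 (25.4 ± 2.59) and Efnb2 (21.9 ± 2.21) to Sema3g (16.8 ± 1.1), and of the neighbours in that order only Efnb2 and Sema3g did not meet in their library values. In oxidative WT it ran from Gja4 (21.0 ± 6.92 TPM) through Efnb2 (16.4 ± 1.13), Gja5 (13.1 ± 0.898) and Gkn3 (9.84 ± 1.71) to Sema3g (8.80 ± 0.277), and only Efnb2 and Gja5 did not overlap. In glycolytic Atf4 ECKO the order was Gja5 (25.9 ± 3.33 TPM), Gja4 (24.8 ± 2.55), Efnb2 (22.3 ± 1.81), Gkn3 (21.4 ± 1.76) and Sema3g (15 ± 0.888), and only Gkn3 and Sema3g did not overlap. In oxidative Atf4 ECKO it was Efnb2 (20.1 ± 1.49 TPM), Gja4 (17.5 ± 2.08), Sema3g (16.5 ± 3.87), Gja5 (14.4 ± 1.63) and Gkn3 (7.61 ± 2.78), and only Gja5 and Gkn3 did not overlap. Gja5 was thus first of the 5 in both glycolytic groups, while Sema3g was last in every group except oxidative Atf4 ECKO.

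**Figure D1:**
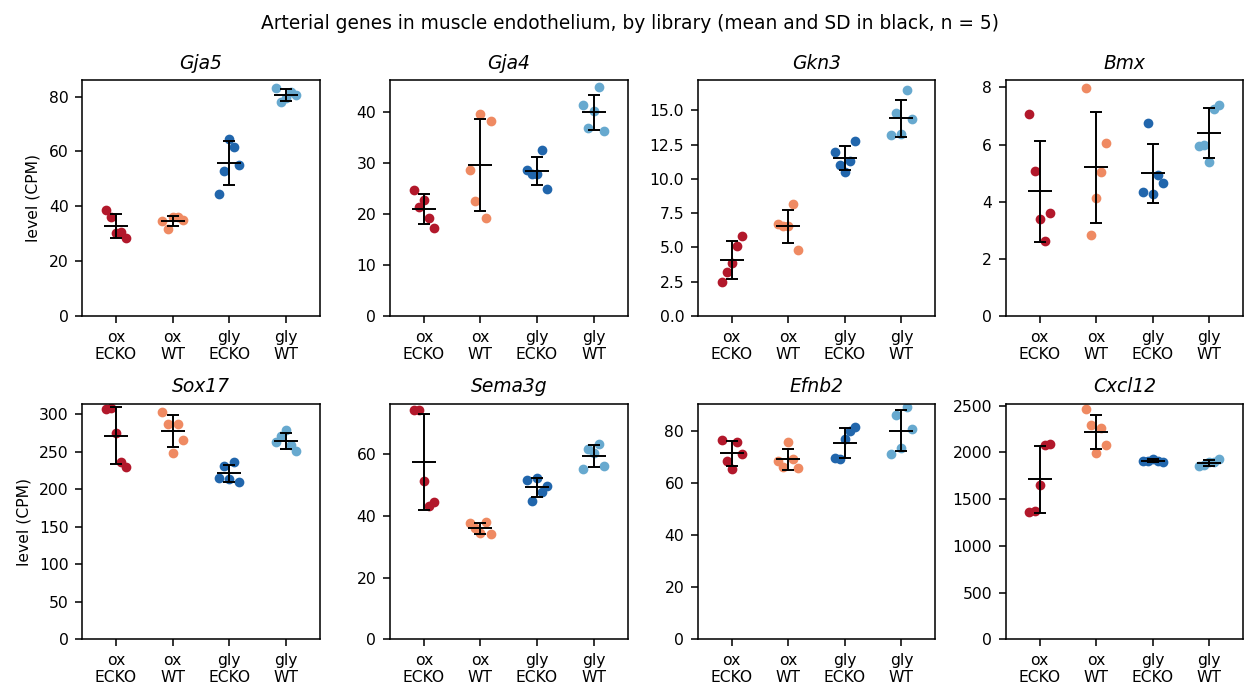
Level of each of the 8 genes in CPM (vertical axes, each from 0) in oxidative Atf4 ECKO, oxidative WT, glycolytic Atf4 ECKO and glycolytic WT, with 1 point for each library and the mean and SD in black (n = 5). Gja5 and Gkn3 are lower in both oxidative groups than in both glycolytic groups, and the 5 oxidative Atf4 ECKO points of Sema3g (43.1 to 74.3 CPM) and Cxcl12 (1362.8 to 2092.4 CPM) are spread wider than those of any other group.

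Gja5, connexin 40, separated the muscles with the smallest adjusted p of the 8 genes. It stood at 38.7, 36.0, 30.3, 30.6 and 28.5 CPM in oxidative Atf4 ECKO libraries 1 to 5 and at 34.6, 31.6, 35.9, 36.0 and 35.0 CPM in oxidative WT. In glycolytic muscle it stood at 44.4, 52.7, 64.6, 61.7 and 55.0 CPM in Atf4 ECKO and at 83.2, 77.9, 79.4, 81.7 and 80.7 CPM in WT. Every oxidative library lay below every glycolytic library, the glycolytic Atf4 ECKO libraries lay below all glycolytic WT libraries, and the genotypes overlapped in oxidative muscle. Tests here are edgeR's quasi-likelihood test with Benjamini-Hochberg adjustment over all 13971 genes, and an adjusted p below 0.05 is a call. Gja5 was 2.32-fold lower in oxidative than in glycolytic WT (log2 -1.21 ± 0.082 SE, edgeR adjusted p = 6.6e-12) and 1.71-fold lower in oxidative than in glycolytic Atf4 ECKO (-0.78 ± 0.085, edgeR adjusted p = 1.7e-07). In Atf4 ECKO it was 1.44-fold lower than in WT in glycolytic muscle (-0.52 ± 0.08, edgeR adjusted p = 1.3e-05), while in oxidative muscle the log2 difference was -0.09 ± 0.086 (edgeR adjusted p = 0.47). The effect of genotype differed between the muscles by 0.44 ± 0.12 on the log2 scale (interaction, edgeR adjusted p = 0.0072). Without oxidative Atf4 ECKO libraries 1 to 3 that difference was 0.29 (edgeR adjusted p = 0.085) and no longer a call, nor was it one with library sizes set from pan-endothelial genes (0.14, edgeR adjusted p = 0.34). The oxidative genotype difference was -0.24 (edgeR adjusted p = 0.074) without libraries 1 to 3 and 0.02 (edgeR adjusted p = 0.92) without libraries 4 and 5. With Y-linked RNA as a covariate, the glycolytic genotype difference was no longer a call (-0.24, edgeR adjusted p = 0.28).

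Gja4, connexin 37, was lower in Atf4 ECKO in both muscles. It stood at 24.7, 21.3, 22.8, 19.2 and 17.3 CPM in oxidative Atf4 ECKO and at 28.7, 22.5, 39.6, 19.3 and 38.2 CPM in oxidative WT. Glycolytic libraries stood at 28.6, 27.9, 27.9, 32.6 and 25.0 CPM in Atf4 ECKO and at 41.4, 36.9, 40.2, 44.9 and 36.4 CPM in WT. The glycolytic genotypes did not overlap, and the glycolytic Atf4 ECKO libraries all exceeded the oxidative Atf4 ECKO libraries. The oxidative WT libraries overlapped those of oxidative Atf4 ECKO and of glycolytic WT. In oxidative WT, libraries 3 and 5, with the highest Gja4, also had the highest summed fibroblast genes (310.1 and 334.8 CPM, against 141.7 to 162.8 CPM in the other 3) and muscle fibre genes (207.4 and 216.1 CPM, against 108.5 to 140.3 CPM), whose part in this spread was not tested. In Atf4 ECKO Gja4 was 1.4-fold lower than in WT in glycolytic muscle (log2 -0.49 ± 0.14, edgeR adjusted p = 0.010) and 1.42-fold lower in oxidative muscle (-0.50 ± 0.14, edgeR adjusted p = 0.0083). The second call was lost in a fit of the oxidative groups alone (-0.49, edgeR adjusted p = 0.053). With Y-linked RNA as a covariate both calls were lost, at -0.30 (edgeR adjusted p = 0.24) in oxidative and -0.09 (edgeR adjusted p = 0.86) in glycolytic muscle. The interaction was -0.02 ± 0.2 (edgeR adjusted p = 0.96).

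Gja4 was 1.34-fold lower in oxidative than in glycolytic WT (log2 -0.42 ± 0.14, edgeR adjusted p = 0.020) and 1.36-fold lower in oxidative than in glycolytic Atf4 ECKO (-0.44 ± 0.15, edgeR adjusted p = 0.037). These calls were lost when single libraries were left out. In WT the edgeR adjusted p was 0.067 without oxidative WT library 2, 0.077 without oxidative WT library 4 and 0.057 without glycolytic WT library 4. In Atf4 ECKO it lay between 0.054 and 0.11 without any 1 of oxidative libraries 2, 4 and 5 or glycolytic libraries 1 to 4, and the difference was -0.29 (edgeR adjusted p = 0.24) without oxidative libraries 4 and 5. The oxidative genotype difference was -0.72 (edgeR adjusted p = 0.0043) without oxidative Atf4 ECKO libraries 1 to 3 and -0.36 (edgeR adjusted p = 0.088) without libraries 4 and 5. The 2 other connexins on the list of partners, Gja1 (connexin 43) and Gjc1 (connexin 45), did not pass the test in any comparison. Gja1 averaged 477.8 ± 113 CPM in oxidative Atf4 ECKO, 469.3 ± 25.8 in oxidative WT, 570.3 ± 12.2 in glycolytic Atf4 ECKO and 525.3 ± 20.8 in glycolytic WT.

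Gkn3 showed a muscle difference of the same order as Gja5. It stood at 2.47, 3.19, 3.88, 5.09 and 5.85 CPM in oxidative Atf4 ECKO and at 6.68, 6.53, 6.57, 8.17 and 4.80 CPM in oxidative WT. The glycolytic values were 12, 11, 10.5, 11.3 and 12.8 CPM in Atf4 ECKO and 13.2, 14.8, 13.3, 16.5 and 14.4 CPM in WT. All oxidative libraries lay below all glycolytic ones, and the glycolytic Atf4 ECKO libraries lay below the glycolytic WT libraries without overlap. Gkn3 was 2.20-fold lower in oxidative than in glycolytic WT (log2 -1.14 ± 0.16, edgeR adjusted p = 2.2e-06) and 2.74-fold lower in oxidative than in glycolytic Atf4 ECKO (-1.45 ± 0.17, edgeR adjusted p = 5.1e-07). In Atf4 ECKO it was 1.56-fold lower than in WT in oxidative muscle (-0.65 ± 0.17, edgeR adjusted p = 0.0050). That difference was -0.25 (edgeR adjusted p = 0.32) without libraries 1 to 3 and -1.02 (edgeR adjusted p = 4.4e-05) without libraries 4 and 5. In glycolytic muscle the log2 difference was -0.33 ± 0.15 and did not pass (edgeR adjusted p = 0.10), although the libraries did not overlap. It passed in a fit of the glycolytic groups alone (-0.33, edgeR adjusted p = 0.014) and with Y-linked RNA as a covariate (-1.26, edgeR adjusted p = 0.0011). Neither fit can separate genotype from sex in glycolytic muscle. The interaction of -0.31 ± 0.23 did not pass (edgeR adjusted p = 0.37). It was 0.09 (edgeR adjusted p = 0.82) without libraries 1 to 3 and -0.67 (edgeR adjusted p = 0.023) without libraries 4 and 5.

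Sema3g was higher in Atf4 ECKO than in WT in oxidative muscle, and this genotype effect differed from that in glycolytic muscle. It stood at 74.2, 74.3, 51.4, 43.1 and 44.6 CPM in oxidative Atf4 ECKO and at 37.7, 35.9, 34.4, 37.9 and 34.1 CPM in oxidative WT. In glycolytic muscle it stood at 51.7, 44.8, 52.3, 47.7 and 49.7 CPM in Atf4 ECKO and at 55.0, 61.6, 60.4, 63.1 and 56.0 CPM in WT. The Atf4 ECKO libraries were all higher than WT in oxidative muscle and all lower in glycolytic muscle. In Atf4 ECKO Sema3g was 1.59-fold higher than in WT in oxidative muscle (log2 0.66 ± 0.11, edgeR adjusted p = 4.5e-05). The call held without libraries 1 to 3 (0.29, edgeR adjusted p = 0.0052) and without libraries 4 and 5 (0.89, edgeR adjusted p = 4.6e-09), with sizes more than 1.5 times apart. Without libraries 1 to 3, only libraries with little Y-linked RNA remained in oxidative Atf4 ECKO, so genotype and sex coincided in that fit. In glycolytic muscle the difference of -0.27 ± 0.11 did not pass in the fit of all groups (edgeR adjusted p = 0.074). It passed in a fit of the glycolytic groups alone (-0.26, edgeR adjusted p = 0.0007), and in that of all groups without any 1 of oxidative Atf4 ECKO libraries 1, 2, 4 and 5 (edgeR adjusted p between 0.036 and 0.046). It was -0.13 (edgeR adjusted p = 0.35) with library sizes from pan-endothelial genes, and its sign turned with Y-linked RNA as a covariate (0.46, edgeR adjusted p = 0.014). The genotype effect in oxidative minus that in glycolytic muscle was 0.93 ± 0.16 (edgeR adjusted p = 7.9e-05), and it was 0.56 (edgeR adjusted p = 6.2e-05) without libraries 1 to 3. Sema3g was 1.65-fold lower in oxidative than in glycolytic WT (-0.72 ± 0.11, edgeR adjusted p = 1.4e-05), whereas in Atf4 ECKO the oxidative libraries lay on both sides of the glycolytic ones (0.21 ± 0.11, edgeR adjusted p = 0.21). That last difference was -0.16 (edgeR adjusted p = 0.16) without oxidative Atf4 ECKO libraries 1 to 3 and 0.44 (edgeR adjusted p = 0.00044) without libraries 4 and 5.

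Efnb2, ephrin-B2, varied least of the 8 genes over the 20 libraries, with an SD of 0.13 in log2 CPM. It stood at 76.6, 68.6, 65.3, 75.7 and 71.0 CPM in oxidative Atf4 ECKO and at 68.3, 66.0, 75.7, 69.1 and 65.9 CPM in oxidative WT. Its glycolytic levels were 69.5, 69.2, 76.7, 79.8 and 81.4 CPM in Atf4 ECKO and 71.2, 85.9, 73.3, 89.2 and 80.8 CPM in WT. All groups overlapped. Efnb2 was 1.16-fold lower in oxidative than in glycolytic WT (log2 -0.22 ± 0.065, edgeR adjusted p = 0.011), a call that was lost when library sizes were set from pan-endothelial genes (-0.02, edgeR adjusted p = 0.83). The other 3 comparisons of single groups gave log2 values between -0.09 and 0.05, of which those between the genotypes turn their sign under that scaling, and none passed. In the deposited TPM, which were not tested between groups, Efnb2 stood at 18.6 to 22.0 in oxidative Atf4 ECKO and at 15.4 to 18.3 in oxidative WT.

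Sox17, the arterial SoxF factor, was lower in Atf4 ECKO in glycolytic muscle. It stood at 307.3, 308.7, 274.7, 236.3 and 229.3 CPM in oxidative Atf4 ECKO and at 302.3, 287.3, 248.2, 286.8 and 265.7 CPM in oxidative WT. In glycolytic muscle it stood at 214.9, 230.4, 214.2, 236.8 and 209.8 CPM in Atf4 ECKO and at 262.3, 270.4, 278.7, 258.7 and 251.5 CPM in WT. The glycolytic genotypes did not overlap, while the oxidative Atf4 ECKO libraries spanned more than the range of oxidative WT. In Atf4 ECKO Sox17 was 1.19-fold lower than in WT in glycolytic muscle (log2 -0.26 ± 0.071, edgeR adjusted p = 0.0074), a call that was lost when library sizes were set from pan-endothelial genes (-0.12, edgeR adjusted p = 0.13), and whose sign turned with Y-linked RNA as a covariate (0.15, edgeR adjusted p = 0.29). In oxidative muscle the difference was -0.04 ± 0.07 (edgeR adjusted p = 0.73) with all libraries, -0.26 (edgeR adjusted p = 0.0039) without libraries 1 to 3 and 0.10 (edgeR adjusted p = 0.19) without libraries 4 and 5. Sox17 was 1.22-fold higher in oxidative than in glycolytic Atf4 ECKO (0.29 ± 0.071, edgeR adjusted p = 0.0042), but the difference was 0.07 (edgeR adjusted p = 0.54) without libraries 1 to 3. The oxidative libraries left, 4 and 5, had little Y-linked RNA and also the most fibroblast RNA of that group. The part of either was not tested. In WT the difference between the muscles did not pass (0.07 ± 0.07, edgeR adjusted p = 0.46). The interaction of 0.22 ± 0.1 did not pass either (edgeR adjusted p = 0.12), and was a call without oxidative Atf4 ECKO library 5 (0.28, edgeR adjusted p = 0.03). It was 0.00 (edgeR adjusted p = 0.99) without libraries 1 to 3 and 0.38 (edgeR adjusted p = 0.0005) without libraries 4 and 5.

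Sox17 was also the only gene of the 8 with at least 2 transcripts that each held 10% or more of its pooled counts. The leading transcript Sox17-202 held 30.9% ± 3.36 of the counts in oxidative Atf4 ECKO, 28.3% ± 3.04 in oxidative WT, 33.2% ± 2.38 in glycolytic Atf4 ECKO and 26.5% ± 3.23 in glycolytic WT (SD, n = 5 each). The difference of 6.72 percentage points between glycolytic Atf4 ECKO and WT had a 2-sided exact permutation p of 0.016, or 0.063 after Benjamini-Hochberg adjustment over the 4 comparisons, and none of the 4 passed. The smallest p that 5 against 5 libraries allow is 0.0079. Of Cxcl12, 91.1% of the pooled counts fell on Cxcl12-201, and of each of the other 6 genes at least 98.5% fell on a single transcript. In TPM, however, the shorter Cxcl12-202 held on average 21.5% in oxidative Atf4 ECKO, 18.3% in oxidative WT, 26.5% in glycolytic Atf4 ECKO and 24.5% in glycolytic WT. Its share of counts was 6.1% to 7.05% in oxidative WT and 8.5% to 9.52% in glycolytic WT, a difference that was not tested.

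Cxcl12 had the widest spread between oxidative Atf4 ECKO libraries in absolute terms. It stood at 1362.8, 1375.7, 1646.3, 2077.9 and 2092.4 CPM in oxidative Atf4 ECKO and at 2464.2, 2291.5, 1992.0, 2257.5 and 2078.4 CPM in oxidative WT. The values in glycolytic muscle were 1908.4, 1902.9, 1932.2, 1909.8 and 1895.1 CPM in Atf4 ECKO and 1857.9, 1861.8, 1890.9, 1891.3 and 1933.4 CPM in WT. Libraries 4 and 5 of oxidative Atf4 ECKO lay within the range of oxidative WT, libraries 1 to 3 lay below it, and the glycolytic genotypes overlapped within a narrow range. In Atf4 ECKO Cxcl12 was 1.3-fold lower than in WT in oxidative muscle (log2 -0.37 ± 0.088, edgeR adjusted p = 0.0016). The difference was -0.09 (edgeR adjusted p = 0.25) without libraries 1 to 3 and -0.59 (edgeR adjusted p = 4.9e-09) without libraries 4 and 5. In glycolytic muscle it was 0.02 ± 0.088 (edgeR adjusted p = 0.91), or -0.61 (edgeR adjusted p = 3.2e-06) with Y-linked RNA as a covariate, and the interaction of -0.39 ± 0.12 (edgeR adjusted p = 0.023) was -0.10 (edgeR adjusted p = 0.33) without libraries 1 to 3 and was not a call without glycolytic Atf4 ECKO library 3 (edgeR adjusted p = 0.054).

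All oxidative WT libraries exceeded all glycolytic WT libraries in Cxcl12 CPM, and Cxcl12 was 1.17-fold higher there (log2 0.23 ± 0.088, edgeR adjusted p = 0.044). This call was lost with DESeq2 (0.24, adjusted p = 0.059) and with an offset for transcript length (0.16, edgeR adjusted p = 0.21). It was also lost without any 1 of oxidative WT libraries 1, 2 and 4, glycolytic WT libraries 1 to 5, oxidative Atf4 ECKO library 3 and glycolytic Atf4 ECKO library 3 (edgeR adjusted p between 0.051 and 0.12). In the deposited TPM, which were not tested between groups, the direction was opposite. Cxcl12 averaged 509.2 TPM (472.6 to 539.9) in oxidative WT and 529.2 TPM (521.5 to 542.2) in glycolytic WT. Between oxidative and glycolytic Atf4 ECKO the difference of -0.16 ± 0.088 did not pass (edgeR adjusted p = 0.24), and was a call without oxidative library 4 (-0.24, edgeR adjusted p = 0.047) or library 5 (-0.24, edgeR adjusted p = 0.04). It was 0.13 (edgeR adjusted p = 0.13) without oxidative libraries 1 to 3 and -0.37 (edgeR adjusted p = 2.5e-05) without libraries 4 and 5. The signalling receptor Cxcr4 averaged 23.1 ± 6.46 CPM in oxidative Atf4 ECKO, 13.1 ± 4.44 in oxidative WT, 7.80 ± 0.799 in glycolytic Atf4 ECKO and 7.86 ± 0.961 in glycolytic WT. It was higher in oxidative than in glycolytic muscle in WT (0.74 ± 0.19, edgeR adjusted p = 0.0042) and in Atf4 ECKO (1.57 ± 0.2, edgeR adjusted p = 2e-06). The scavenging receptor Ackr3 was higher in Atf4 ECKO than in WT in glycolytic muscle (362.8 ± 16.3 CPM in Atf4 ECKO and 233.3 ± 17.6 in WT, log2 0.64 ± 0.11, edgeR adjusted p = 4e-05). It was also higher in oxidative muscle (319.7 ± 81.4 CPM in Atf4 ECKO and 259.9 ± 8.98 in WT, 0.30 ± 0.11, edgeR adjusted p = 0.030).

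Bmx was the least abundant gene and passed no test. It stood at 7.07, 5.08, 3.39, 2.63 and 3.61 CPM in oxidative Atf4 ECKO and at 7.98, 2.84, 4.12, 5.03 and 6.04 CPM in oxidative WT. Levels in glycolytic muscle were 4.34, 6.75, 4.26, 4.94 and 4.64 CPM in Atf4 ECKO and 5.96, 5.98, 5.39, 7.26 and 7.39 CPM in WT. All groups overlapped, and the 4 log2 differences between single groups lay between -0.37 and -0.20 with SE of 0.23 to 0.24. The genotype difference in oxidative muscle was -0.72 (edgeR adjusted p = 0.055) without oxidative Atf4 ECKO libraries 1 to 3 and -0.01 (edgeR adjusted p = 0.97) without libraries 4 and 5. The difference between oxidative and glycolytic Atf4 ECKO was -0.64 (edgeR adjusted p = 0.14) without libraries 1 to 3 and 0.07 (edgeR adjusted p = 0.89) without libraries 4 and 5, and the interaction was -0.34 and 0.37 in these fits. Its paralogue Tec, a kinase of the same family that immune cells also express, averaged 5.40 ± 0.767 CPM in oxidative Atf4 ECKO and 10.3 ± 1.09 in oxidative WT (log2 -0.93 ± 0.14, edgeR adjusted p = 1.1e-05). The summed immune genes moved with it, at 38.4 to 87.7 CPM in oxidative Atf4 ECKO and 282.5 to 371.2 CPM in oxidative WT, with Ptprc at 0.137 to 0.424 CPM in oxidative Atf4 ECKO and 1.9 to 3.46 CPM in oxidative WT. The part of these cells in the difference of Tec was not tested.

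**Figure D2:**
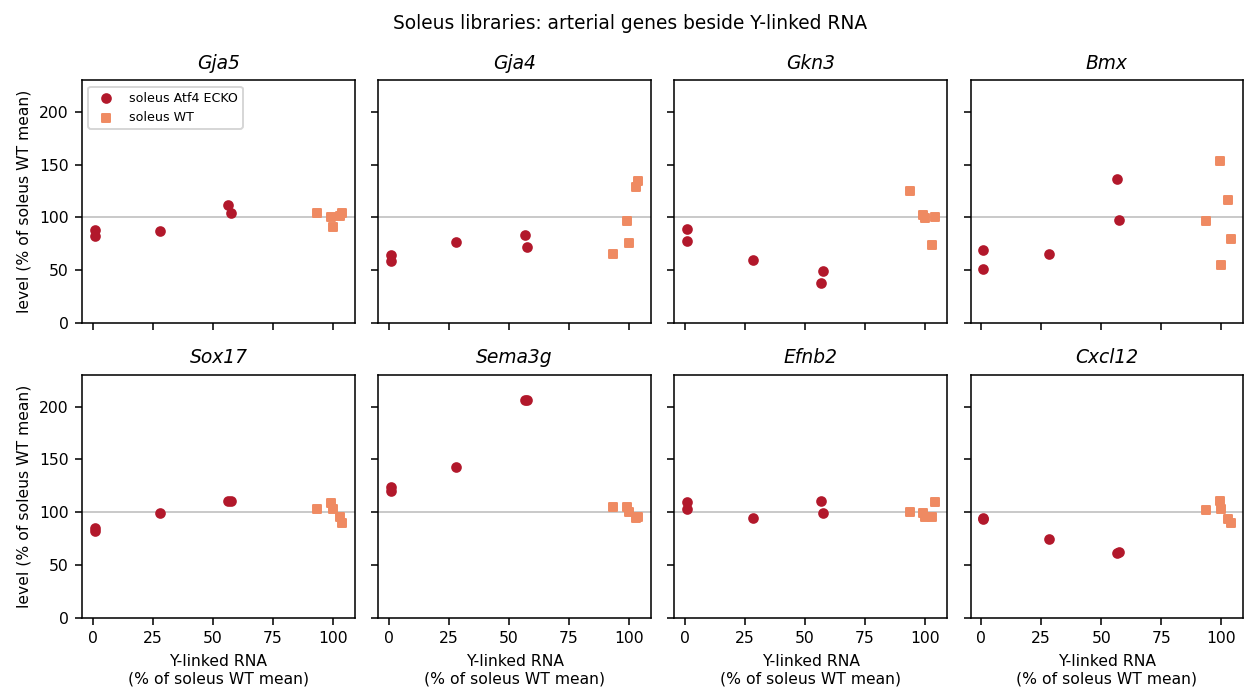
Level of each of the 8 genes in the 10 soleus libraries as a percentage of the oxidative WT mean (vertical axes) against the Y-linked RNA of the same library, also as a percentage of that mean (horizontal axes), with circles for Atf4 ECKO and squares for WT. Among the Atf4 ECKO libraries, Sema3g is at 206% in the 2 libraries with most Y-linked RNA and at 120% and 124% in the 2 with least, while Cxcl12 and Gkn3 run the other way.

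Within oxidative Atf4 ECKO, several of the 8 genes thus followed the order of the libraries in Y-linked RNA. In percent of the oxidative WT mean, Sema3g stood at 206, 206, 143, 120 and 124 in libraries 1 to 5, and Sox17 at 111, 111, 98.8, 85.0 and 82.5. Cxcl12 stood at 61.5, 62.1, 74.3, 93.7 and 94.4, and Gkn3 at 37.7, 48.7, 59.2, 77.7 and 89.3. Sema3g and Sox17 were highest, and Cxcl12 and Gkn3 lowest, in libraries 1 and 2, with library 3 between them and libraries 4 and 5. Gja5 stood at 112, 104, 87.5, 88.4 and 82.3, Gja4 at 83.3, 71.8, 76.9, 64.7 and 58.3, and Bmx at 136, 97.7, 65.2, 50.6 and 69.4. In each of these, libraries 4 and 5 also lay below libraries 1 and 2, in a less regular order. Efnb2 showed no such order, at 111, 99.4, 94.6, 110 and 103. Other RNA moved along the same libraries. Fibroblast genes summed to 63.3, 64.2, 223.1, 432.3 and 421.4 CPM, mural genes, those of smooth muscle cells and pericytes, to 864.3, 860.8, 933.6, 967.8 and 1319 CPM, and immune genes to 87.7, 81.4, 79.4, 53.7 and 38.4 CPM. Muscle fibre genes summed to 207, 220.5, 235.2, 280.2 and 284.5 CPM, and mitochondrial genes took 10.6%, 9.99%, 8.48%, 7.85% and 7.38% of the counts. The part of these in the order of the 8 genes was not tested.

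**Figure D3:**
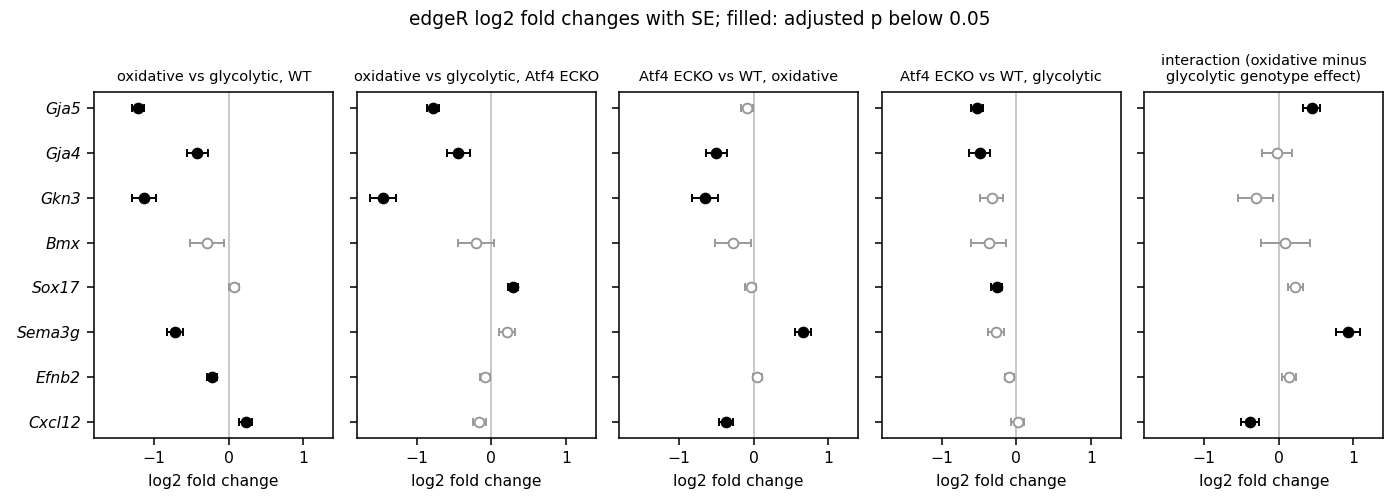
Log2 fold changes of the 8 genes (horizontal axes, with bars for the SE) in the 4 comparisons of single groups and the interaction, from edgeR with all 20 libraries. Filled points passed an adjusted p of 0.05: in WT, Gja5, Gja4, Gkn3, Sema3g and Efnb2 lie left of 0 and Cxcl12 right of it, while in the interaction panel Sema3g and Gja5 lie right of 0 and Cxcl12 left.

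Counted over the list, 6 of the 8 genes differed between oxidative and glycolytic WT, 5 lower and 1 higher, where 32.4% of all tested genes were called, 15.9% lower and 16.4% higher. Between oxidative and glycolytic Atf4 ECKO, 4 of 8 were called, 3 lower and 1 higher, against 18.4% of all genes, 10.1% lower and 8.31% higher. Atf4 ECKO and WT differed for 4 of 8 genes in oxidative muscle, 1 higher and 3 lower, against 32.0% of all genes, 14.6% higher and 17.4% lower. In glycolytic muscle they differed for 3 of 8, all lower, against 29.0% of all genes, 13.9% higher and 15.1% lower. The interaction was called for 3 of 8, 2 higher and 1 lower, against 22.6% of all genes, 10.1% higher and 12.5% lower. The genotype and muscle comparisons share groups, so their counts are not independent of each other.

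The median log2 value of the 8 genes was -0.36 in oxidative against glycolytic WT, -0.18 in oxidative against glycolytic Atf4 ECKO, -0.18 in Atf4 ECKO against WT in oxidative muscle and -0.30 in glycolytic muscle. The median over all tested genes lay between 0.00 and 0.02 in these comparisons. Groups did not overlap in CPM for 4 of the 8 genes between oxidative and glycolytic WT, 3 lower and 1 higher, against 23.1% of all genes, 11.0% lower and 12.1% higher. Between oxidative and glycolytic Atf4 ECKO they did not overlap for 3 genes, all lower, against 13.2% of all genes, 7.59% lower and 5.66% higher. Between the genotypes they did not overlap for 1 gene in oxidative muscle, higher in Atf4 ECKO, against 20.2% of all genes, 8.20% higher. In glycolytic muscle they did not overlap for 5 genes, all lower in Atf4 ECKO, against 22.4% of all genes, 10.6% higher and 11.9% lower.

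When library sizes were set from the 16 pan-endothelial genes, the median of all genes stood at 0.19 in oxidative against glycolytic WT, -0.10 in Atf4 ECKO, -0.14 for genotype in oxidative muscle, 0.14 for genotype in glycolytic muscle and -0.28 for the interaction, where TMM gave 0.00 to 0.02. Under that scaling 5199 of 5851 calls between the muscles in WT were higher, where TMM gave 2295 of 4520. For genotype it gave 820 of 5238 calls higher in oxidative muscle, where TMM gave 2035 of 4470, and 3967 of 4916 in glycolytic muscle, where TMM gave 1939 of 4054. Between the muscles in Atf4 ECKO 635 of 3465 calls were higher, where TMM gave 1161 of 2573, and for the interaction 298 of 5292, where TMM gave 1417 of 3163. Gja5 (-1.02), Gkn3 (-0.95) and Sema3g (-0.53) remained lower and Cxcl12 (0.43) higher in oxidative than in glycolytic WT, while Gja4 (-0.22, edgeR adjusted p = 0.21) and Efnb2 did not pass and Sox17 was higher (0.27, edgeR adjusted p = 0.00069). In glycolytic muscle Gja5 alone remained lower in Atf4 ECKO (-0.39, edgeR adjusted p = 0.00029), and Gja4 stood at -0.35 (edgeR adjusted p = 0.060). In oxidative muscle Gja5 became a call (-0.25, edgeR adjusted p = 0.019), as did Sox17 (-0.20, edgeR adjusted p = 0.010), beside Sema3g (0.50), Gja4 (-0.67), Gkn3 (-0.79) and Cxcl12 (-0.52).

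A longer list of 32 other genes of arterial endothelium, of which 31 were tested, was set beside the 8. Between oxidative and glycolytic WT, 14 of the 31 were lower and 7 higher, with a median of -0.13. Of all tested genes, 15.9% were lower and 16.4% higher. Eln, the gene of elastin in arterial walls, averaged 43.6 ± 2.95 CPM in oxidative and 71.7 ± 4.64 in glycolytic WT (log2 -0.72 ± 0.062, edgeR adjusted p = 8.2e-10). The Notch ligand Dll1 averaged 75.8 ± 14.5 CPM in oxidative and 138.0 ± 8.55 in glycolytic WT (-0.87 ± 0.091, edgeR adjusted p = 2.8e-08). The Notch target Hey1 averaged 83.0 ± 8.49 CPM in oxidative and 135.5 ± 11.7 in glycolytic WT (-0.71 ± 0.091, edgeR adjusted p = 7.6e-07). The taurine transporter Slc6a6 went the other way, with 602.6 ± 38.4 CPM in oxidative and 356.2 ± 22.0 in glycolytic WT (0.76 ± 0.078, edgeR adjusted p = 1.7e-08). Between oxidative and glycolytic Atf4 ECKO, 11 were lower and 7 higher, with a median of -0.10, against 10.1% lower and 8.31% higher of all tested genes. Other RNA moved between the WT muscles as well: mural genes summed to 655.1 to 767.4 CPM in oxidative and 962.9 to 978.3 CPM in glycolytic WT, with 7 of 13 lower, and immune genes to 282.5 to 371.2 CPM in oxidative and 21.2 to 25.8 CPM in glycolytic WT, with 12 of 12 higher. Muscle fibre genes summed to 108.5 to 216.1 CPM in oxidative and 54.9 to 61 CPM in glycolytic WT, with 12 of 14 higher, and fibroblast genes to 141.7 to 334.8 CPM in oxidative and 52.9 to 60.6 CPM in glycolytic WT, with 8 of 9 higher. Mitochondrial genes took 11.4% to 14.2% of the counts in oxidative and 5.74% to 6.15% in glycolytic WT. Their part in the arterial genes was not tested.

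In Atf4 ECKO against WT, 15 of the 31 other arterial genes were lower and 4 higher in glycolytic muscle (median -0.22), and 12 were lower and 7 higher in oxidative muscle (median -0.14). Of all tested genes, 15.1% were lower and 13.9% higher in glycolytic muscle, and 17.4% and 14.6% in oxidative muscle. The interaction was called for 22.6% of all tested genes. Fbln5, an elastic fibre protein, averaged 145.4 ± 6.87 CPM in glycolytic Atf4 ECKO and 221.1 ± 8.58 in glycolytic WT (log2 -0.60 ± 0.045, edgeR adjusted p = 6.9e-11), and 117.9 ± 6.26 CPM in oxidative Atf4 ECKO and 185.1 ± 6.53 in oxidative WT (-0.65 ± 0.045, edgeR adjusted p = 1.1e-11). Slc6a6 was lower in Atf4 ECKO in glycolytic (-0.96 ± 0.079, edgeR adjusted p = 5.1e-10) and in oxidative muscle (-0.95 ± 0.078, edgeR adjusted p = 3.1e-10). Edn1, the precursor of the vasoconstrictor endothelin, was higher in glycolytic muscle, with 559.6 ± 15 CPM in Atf4 ECKO and 208.8 ± 2.77 in WT (1.42 ± 0.085, edgeR adjusted p = 7.7e-13). The genotype effect differed between the muscles for 14 of the 31, 9 of them towards higher values in oxidative muscle, among them the Notch ligand Dll4 (0.67 ± 0.068, edgeR adjusted p = 3.6e-08) and Hey1 (0.92 ± 0.13, edgeR adjusted p = 6.8e-06). Mural genes moved beside these. In glycolytic muscle 4 of 13 were higher and 2 lower in Atf4 ECKO, summing to 2127.1 to 2184.1 CPM in Atf4 ECKO and 962.9 to 978.3 CPM in WT, with Acta2 (2.44 ± 0.095) and Tagln (2 ± 0.13) higher and the pericyte marker Pdgfrb (-0.48 ± 0.12) lower. In oxidative muscle 8 of 13 were higher, summing to 860.8 to 1319 CPM in Atf4 ECKO and 655.1 to 767.4 CPM in WT. Muscle fibre genes were higher in Atf4 ECKO for 9 of 14 in glycolytic muscle, summing to 137.4 to 141 CPM in Atf4 ECKO and 54.9 to 61 CPM in WT, and for 8 of 14 in oxidative muscle, summing to 207 to 284.5 CPM in Atf4 ECKO and 108.5 to 216.1 CPM in WT. Of 9 fibroblast genes, 4 were higher in glycolytic muscle, summing to 124.2 to 130.1 CPM in Atf4 ECKO and 52.9 to 60.6 CPM in WT, and none was called in oxidative muscle. The part of this RNA in the arterial genes was not tested.

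**Figure D4:**
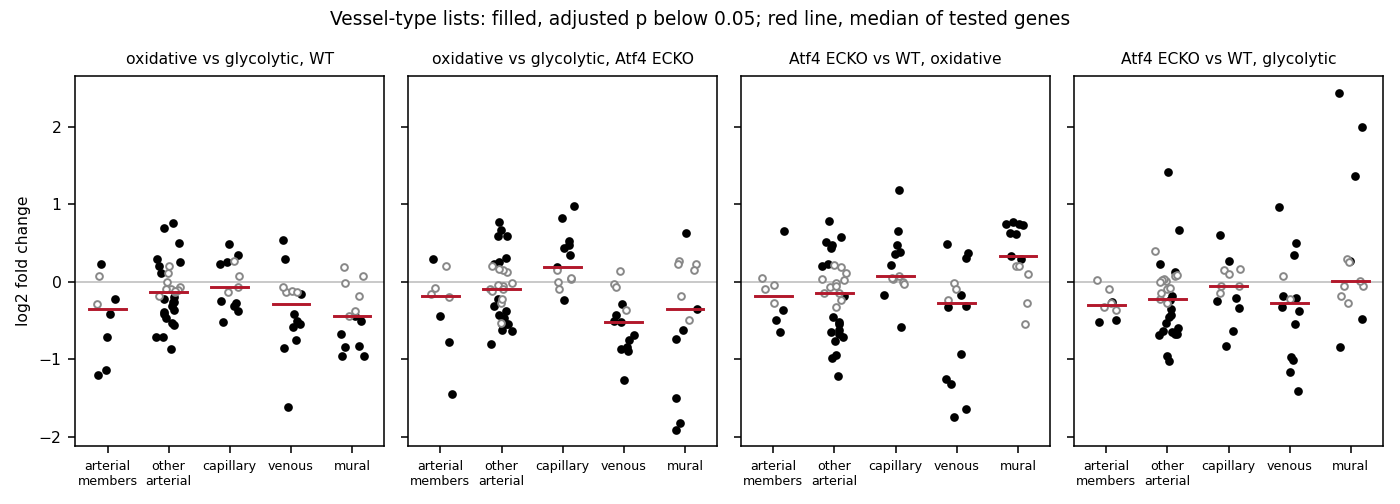
Log2 fold changes (vertical axis) of the 8 genes, the other arterial genes and the capillary, venous and mural lists in 4 comparisons, with 1 point for each tested gene, filled where the edgeR adjusted p was below 0.05, and a red line at the median. The medians of the 8 genes (-0.36, -0.18, -0.18 and -0.30) lie below those of the capillary list (-0.07, 0.19, 0.07 and -0.06) in all 4 panels, and above that of the venous list (-0.29, -0.52, -0.28 and -0.28) in the panels of the muscles in Atf4 ECKO and of genotype in oxidative muscle.

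The receptors, relatives and processing enzyme of the 8 genes were taken as a list of 20 partners, of which 18 were tested. Between oxidative and glycolytic WT 3 were higher and 3 lower, and between oxidative and glycolytic Atf4 ECKO 5 were higher and 1 lower. In Atf4 ECKO against WT, 6 were higher and 2 lower in oxidative muscle, and 5 were higher and 5 lower in glycolytic muscle. Of all tested genes, 32.4% and 18.4% were called between the muscles in WT and in Atf4 ECKO. For genotype the shares were 32.0% in oxidative and 29.0% in glycolytic muscle. The ephrin-B2 receptor Ephb4, also on the venous list, averaged 235.0 ± 21.9 CPM in oxidative Atf4 ECKO, 189.4 ± 6.69 in oxidative WT, 239.5 ± 10.5 in glycolytic Atf4 ECKO and 276.1 ± 7.12 in glycolytic WT. It was higher in Atf4 ECKO than in WT in oxidative muscle (log2 0.31 ± 0.051, edgeR adjusted p = 2.9e-05) and lower in glycolytic muscle (-0.21 ± 0.051, edgeR adjusted p = 0.0034), with an interaction of 0.52 ± 0.073 (edgeR adjusted p = 5.6e-06). Sox18, the SoxF relative of Sox17, was likewise higher in Atf4 ECKO in oxidative (0.51 ± 0.11, edgeR adjusted p = 0.00086) and lower in glycolytic muscle (-0.32 ± 0.11, edgeR adjusted p = 0.033). Nrp2, a semaphorin co-receptor, averaged 213.6 ± 13.3 CPM in glycolytic Atf4 ECKO and 168.5 ± 7.02 in glycolytic WT (0.34 ± 0.071, edgeR adjusted p = 0.00054), while Nrp1 passed no test.

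For comparison, of 14 venous genes 8 were lower and 2 higher in oxidative than in glycolytic WT, and 9 were lower and 3 higher in Atf4 ECKO than in WT in each muscle. Of 13 capillary genes, 5 were lower and 4 higher in oxidative than in glycolytic WT, and in Atf4 ECKO against WT 6 were higher and 2 lower in oxidative muscle and 2 higher and 5 lower in glycolytic muscle. Of 16 pan-endothelial genes, 9 were lower and 1 higher in oxidative than in glycolytic WT (median -0.2). In Atf4 ECKO against WT, 10 were higher and 2 lower in oxidative muscle (median 0.22). In glycolytic muscle 1 was higher and 9 lower (median -0.21). Of all tested genes, 15.9% were lower and 16.4% higher between the WT muscles. For genotype, 17.4% were lower and 14.6% higher in oxidative muscle, and 15.1% and 13.9% in glycolytic muscle. Relative to WT, the venous adhesion gene Selp in Atf4 ECKO fell by 1.75 ± 0.061 on the log2 scale in oxidative muscle (edgeR adjusted p = 3.7e-18) and by 1.01 ± 0.059 in glycolytic muscle (edgeR adjusted p = 5.5e-13). The difference between the arterial genes and these lists was not tested.

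The 8 genes did not share a single profile over the 20 libraries. With each gene's log2 CPM centred on its own mean, the root mean square difference between a pair of the 8 ranged from 0.24 for Efnb2 with Sox17, which both varied little, to 0.86 for Sox17 with Gkn3. Gja5 with Gkn3 and Gja4 with Gja5 differed by 0.45 and 0.38. Among 10330 other genes of at least 4 CPM, the profile nearest to that of Gja5 was Igfbp4 (0.16, against an SD of Gja5 itself of 0.55), followed by Ehd4 (0.17) and Ctnnal1 (0.19). The nearest to Gkn3 was Ret (0.24, SD of Gkn3 0.76), then Chp2 and Plvap (0.30 each), and to Sema3g Fryl (0.13, SD of Sema3g 0.33), then Xbp1 (0.14) and Sult1a1 (0.15). Cxcl12 was nearest to Mef2c, Herpud1 and Zscan26 (0.10 each, SD of Cxcl12 0.20), Sox17 to Nek7 and Cmip (0.08 each) and Plekha1 (0.10, SD of Sox17 0.17), and Efnb2 to Yap1 (0.08), Mcmbp and Aurkaip1 (0.09 each, SD of Efnb2 0.13). Gja4 was nearest to Zfp580 (0.23), Fkbp2 and Cdr2l (0.24 each, SD of Gja4 0.40), and Bmx to Grrp1, Rph3al and Tbc1d7 (0.32 each, SD of Bmx 0.43).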

How the data were processed

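For each library the authors deposited estimated counts per transcript, TPM and effective transcript lengths. TPM, transcript abundance per length, sum to 1000000 in each deposited table. The submitters' processing notes name kallisto and DESeq2 without versions and the build GRCh38.p13, a human assembly, while the transcript identifiers are mouse Ensembl ones. Of 129439 transcripts, 128643 were matched to GENCODE M21 on GRCm38, and the rest held no more than 0.221% of the counts in any library. Strand handling: not given in the sources used here. Libraries were polyadenylated RNA with a stranded kit, read from 1 end, per the labels' protocols.

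Estimated counts were summed per gene and rounded. The 4 groups of 5 libraries entered 1 fit of group means in edgeR 4.0.16 (R 4.3.3), with TMM factors, filterByExpr, the quasi-likelihood test and Benjamini-Hochberg adjustment over 13971 genes. The common biological coefficient of variation was 9.93%. The SE of a log2 value is its size over the square root of the F statistic. Deposited TPM served to order genes by level and, as an alternative, for transcript shares. Transcript shares were compared with 2-sided exact permutation tests in scipy 1.17.1. The fit was tested on simulated counts with known changes. Over the tested genes together, no 2 libraries of a group agreed within sampling noise (lowest chi-square per degree of freedom 2.63). Single genes could agree more closely, such as Cxcl12 in glycolytic Atf4 ECKO with a coefficient of variation of 0.724%. The check does not show that libraries came from separate animals.

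Alternatives tried were DESeq2 1.42.0, limma-voom (limma 3.58.1), RLE factors, testing without the low-count filter, an offset for effective length, the compared groups alone, the replicate block, library sizes from pan-endothelial genes, Y-linked RNA as a covariate (log2 of CPM plus 0.5), leaving out oxidative Atf4 ECKO libraries 1 to 3, and leaving out each library. Leaving out libraries 4 and 5 was added after seeing the data.

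The 8 genes and all lists were chosen with earlier results of these data known. Named were the 8 genes, their partners, at most the 4 genes with the smallest adjusted p of any other list in a comparison, defining markers, Atf4, and for each of the 8 the 3 genes of at least 4 CPM with the nearest centred log2 profile. Xist and 4 Y-linked genes are named as sex markers.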

Additional observations from a re-analysis of the deposited data

Results flagged for a closer look

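Bmx in glycolytic Atf4 ECKO had 1 library far from the other 4, at 6.75 CPM, where the others lay between 4.26 and 4.94 CPM. It was the only such library among 32 combinations of gene and group tested with Dixon's criterion, of which chance alone is expected to flag about 5%.

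The effect of Atf4 deletion differed between the muscles for 3 of the 8 genes, by edgeR's interaction test with Benjamini-Hochberg adjustment, against 22.6% of all tested genes. For Sema3g the log2 effect in oxidative minus that in glycolytic muscle was 0.93 (edgeR adjusted p = 7.9e-05), with all 5 Atf4 ECKO libraries above WT in oxidative muscle and all 5 below it in glycolytic muscle. For Gja5 it was 0.44 (edgeR adjusted p = 0.0072), and for Cxcl12 -0.39 (edgeR adjusted p = 0.023). Without oxidative Atf4 ECKO libraries 1 to 3, the values were 0.56 (edgeR adjusted p = 6.2e-05) for Sema3g, 0.29 (0.085) for Gja5 and -0.10 (0.33) for Cxcl12.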

How the results depend on the processing

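The replicate block gave the same counts of called genes as the fit without it: 6 and 4 between the muscles in WT and in Atf4 ECKO, 4 and 3 for genotype in oxidative and in glycolytic muscle, and 3 for the interaction. Libraries of the same number deviated together with mean correlations of -0.02 to 0.03, and they correlated best with their own number in 1 to 3 of 5 cases. Such low correlations show no pairing by number, but they cannot exclude that libraries of the same number share an animal. For the Sox17-202 share the replicate block allows no p below 0.062, and none of 4 tests passed in any setting. In glycolytic muscle the 3 calls for genotype were 1 with library sizes from pan-endothelial genes, and 5 in the compared groups alone, without oxidative Atf4 ECKO libraries 1 to 3, and without libraries 4 and 5. Over all genes these fits called 4916 of 13971, 4552 of 12912, 4462 of 14856 and 4435 of 14420, in that order. The 3 interaction calls were 1 with Y-linked RNA as a covariate, 1 without libraries 1 to 3 and 5 without libraries 4 and 5. For the interaction over all genes, these fits called 3266 of 13971, 3159 of 14856 and 3496 of 14420, in that order. With the Y-linked covariate the sign turned for Sox17 in oxidative muscle (0.17, edgeR adjusted p = 0.049), and in glycolytic muscle for Sema3g (0.46, 0.014), Sox17 (0.15, 0.29) and Cxcl12 (-0.61, 3.2e-06). Among genotype differences that passed in neither fit, it also turned for Gja5 in oxidative muscle (0.06, 0.74) and for Bmx in oxidative (0.18, 0.69) and glycolytic muscle (0.55, 0.40), while Gkn3 in glycolytic muscle became a call (-1.26, 0.0011). That covariate also ended the calls for Gja4 in oxidative (-0.30, 0.24) and glycolytic muscle (-0.09, 0.86) and for Gja5 in glycolytic muscle (-0.24, 0.28). In glycolytic muscle it and genotype almost coincide, and its adjustment rests mainly on the oxidative Atf4 ECKO libraries. Calls or signs that change with it in glycolytic muscle therefore cannot decide between genotype and sex. Leaving out each library gave 4 to 6 and 3 to 4 calls between the muscles in WT and Atf4 ECKO, 4 to 4 and 3 to 4 for genotype in oxidative and glycolytic muscle, 2 to 4 for the interaction and 0 to 0 for the transcript share. For single genes, 772 of these fits kept direction and side of the threshold, 21 lost a call and 7 gained one. Low counts limit Bmx and Gkn3, with 27 counts in their lowest libraries.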
